A study of Drosophila melanogaster with 3 samples.

Results

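The Polycomb group genes examined here are 10 genes that encode core Polycomb proteins of Drosophila melanogaster, namely ph-p, ph-d, Pc, Psc, Su(z)2, Sce, E(z), esc, Su(z)12 and pho. They were listed by name, with earlier results from these regions known, and all 10 were found among the 13945 annotated protein-coding genes on the chromosome arms 2L, 2R, 3L, 3R, 4 and X of genome build dm6. Each gene was taken with 5 kb on either side. Chromatin immunoprecipitation followed by sequencing was used to locate CG4424, a zinc finger protein carrying GFP at its C terminus, with an antibody to GFP. The chromatin came from whole embryos of strain CG4424-GFP, with male and female embryos pooled, aged 0 to 16 h, and was sonicated to 200 to 800 bp. The 3 biological replicates form 1 group, so there is no treated or mutant group to compare. Whole embryos mix all cell types, and the samples come from a single transgenic line, so binding cannot be assigned to a tissue.

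The authors called regions in each replicate and in the pooled reads, and gave each region a signal value and a summit, the base of highest signal. The optimal set of 6420 regions is the part of the pooled list that passed the authors' reproducibility threshold, and its signal ran from 186.2 to 12375 with a median of 318.4. The relaxed pooled list holds 29056 regions, and the replicate lists hold 22198, 30000 and 29796 regions for replicates 1, 2 and 3. The relaxed lists keep background regions as well as peaks. The labels and notes do not state the scale of the signal, and read depth is unknown. Signal was therefore compared within a list only, and lists were compared by rank or by percentile, the share of regions in a list with lower signal.

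Polycomb proteins keep developmental genes such as the Hox genes silent through cell division. PRC2 methylates histone H3, with E(z) as its methyltransferase and esc and Su(z)12 as its partners, and PRC1 holds Pc, which reads that methylation, together with a polyhomeotic protein, Psc or Su(z)2, and the ubiquitin ligase Sce. In flies these complexes are brought to Polycomb response elements by DNA-binding proteins, among them pho.

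CG4424 summits in the optimal set lay within 500 bp of an annotated start, a distance called the promoter here, at 6 of the 10 genes. These were ph-p, ph-d, Psc, E(z), Su(z)12 and pho, and the background is 24.9% of all protein-coding genes. Within 1000 bp the count was the same, 6 of 10, against 28.6%. Extending the search to the gene with 5 kb on each side gave a summit for 9 of 10 genes, all but esc, against 56.5% of protein-coding genes. Counting a summit only for the gene of its nearest start left 7 of 10, without Pc and Sce. No share of all genes was computed for that count. The members are long genes, with a median length of 8360 bp against 2166 bp for all protein-coding genes, and a longer gene has a wider window. The median of the strongest window signal was 891.9 over the 9 genes with one and 442.7 over all protein-coding genes with one. Both include summits nearest to a start of another gene, as at Pc and Psc. At the promoter the corresponding medians were 374.6 over 6 genes and 374.3 over all genes with one, which are nearly equal. A count of 10 genes is small, so no test was made of the list.

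In the relaxed pooled list 9 of the 10 promoters held a summit, with Sce as the exception, against 50.5% of all protein-coding genes. A region lay at the promoter in all 3 replicate lists for 8 of the 10 genes, against 37.4% of all. Su(z)2 had none in replicate 1, and Sce had none in any replicate. Ranked by the mean percentile of the strongest promoter summit over the 3 replicates, the order was ph-p (99.9 ± 0.0162), E(z) (98.0 ± 0.282), Su(z)12 (92.0 ± 2.48), ph-d (87.6 ± 3.56), Psc (85.1 ± 6.46), pho (81.2 ± 3.46), Pc (71.0 ± 8.10) and esc (63.3 ± 12.3), each with its SD and n = 3, followed by Su(z)2 and Sce. Near the top of a list percentiles leave little room for spread. The ph-p ranks were 13, 18 and 26 in replicates 1, 2 and 3, and the E(z) ranks were 398, 692 and 551. Only ph-p with E(z), and E(z) with Su(z)12, were neighbours in this order whose replicate values did not overlap. From Su(z)12 downwards each gene overlapped the next over the replicates, so the order of neighbours there is not resolved. Genes further apart could still be separate. The lowest Su(z)12 value, 89.9, was above the highest of pho (83.3), Pc (79.4) and esc (75.5). For Su(z)2 and Sce the overlap rests on missing regions set to 0.

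**Figure D1:**
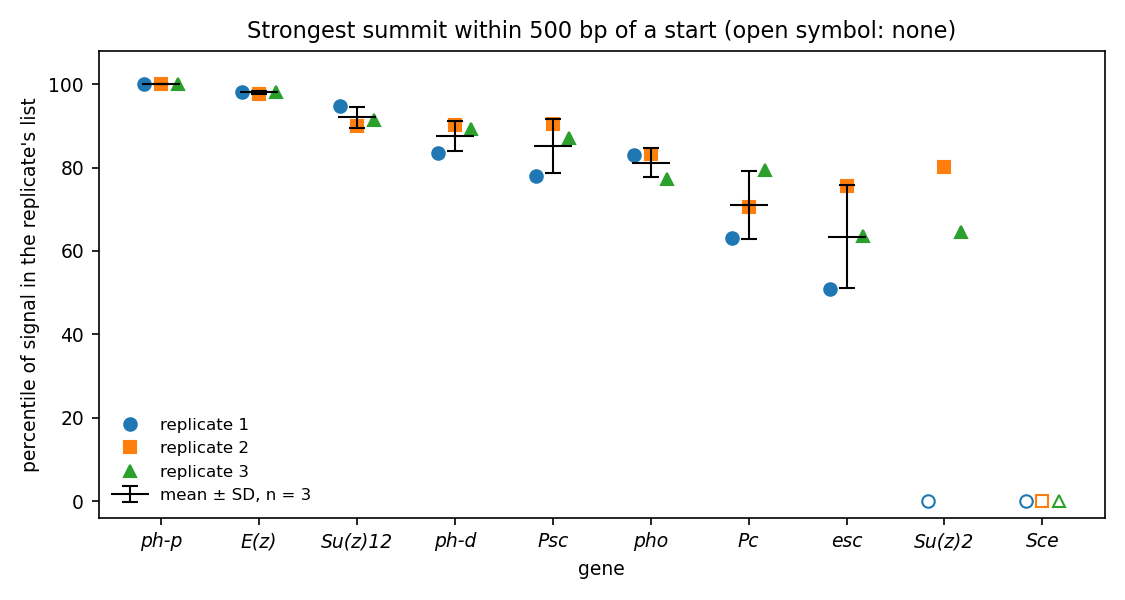
Percentile of the strongest promoter summit of each Polycomb group gene in the list of each replicate (points, with the mean and SD of 3 as bars), where a higher percentile is a stronger region. ph-p and E(z) sit at the top, where percentiles leave little room for spread, and the other genes overlap their neighbours. Su(z)2 in replicate 1 and Sce in all replicates have no promoter region and are set to 0.

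The polyhomeotic genes ph-p and ph-d encode proteins that join PRC1 subunits to each other, and stand side by side on the minus strand of chromosome X. ph-p runs from 2126210 to 2138371 (12162 bp), with starts at 2136622, 2136855 and 2138371, and ph-d runs from 2115727 to 2123286 (7560 bp), with starts at 2121792 and 2123286. Windows of 5 kb on each side hold 10 optimal summits at ph-p and 4 at ph-d, and the 4 at ph-d also lie inside the ph-p window. Counting each summit for the gene of its nearest start left 5 for ph-p and 4 for ph-d. At least 4 such summits were present at 1.43% of all protein-coding genes and at 2 of the 10 members, and at least 2 were present at 6.43% of all and at 4 members (ph-p, ph-d, Psc and Su(z)12).

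**Figure D2:**
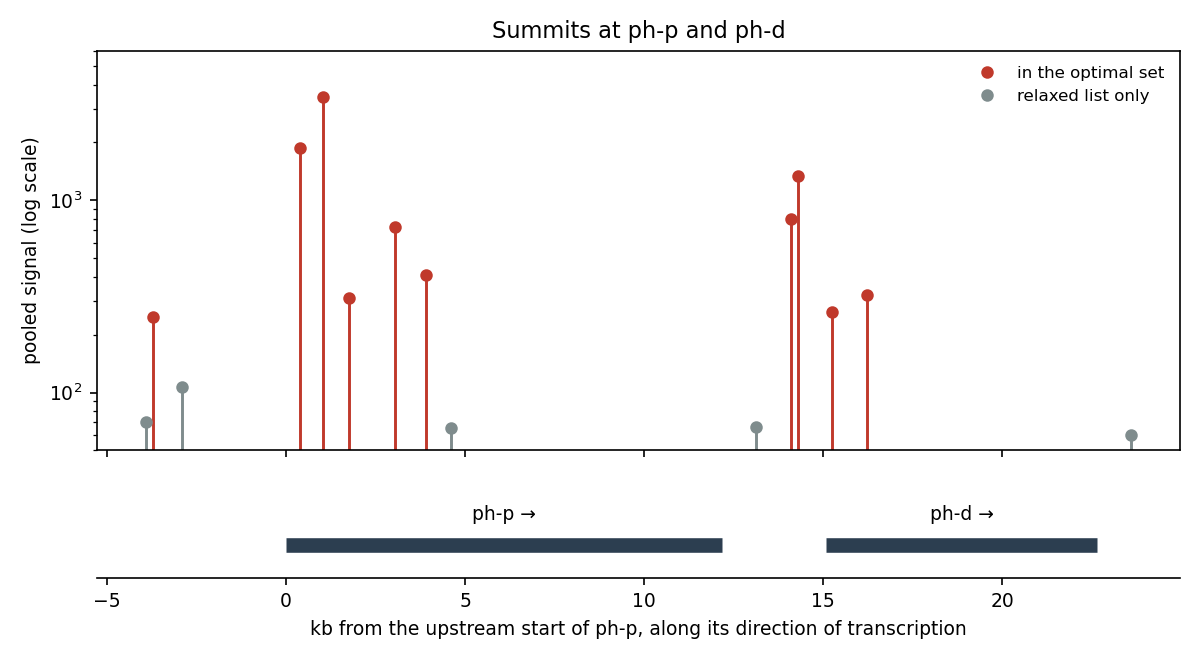
Signal of each optimal and relaxed summit across the ph-d and ph-p loci in kb from the most upstream ph-p start and direction of transcription, with gene bodies drawn below. The strongest summit is in the upstream intron of ph-p, and the next is close to its most upstream start.

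The strongest ph-p summit was at 2137339, with a pooled signal of 3436 and rank 18 of 6420. It lay 484 bp upstream of the start at 2136855, in an intron of the transcript that starts further upstream. In replicates 1, 2 and 3 its signal was 1040.0, 1583.6 and 1000.2, at ranks 13, 18 and 26 of each list, so all replicates placed it among their strongest regions. An optimal summit among the 100 strongest lay within 500 bp of a start at 0.602% of protein-coding genes, and ph-p was the only one of the 10 members with one there. The other strong ph-p summit was at 2137971, in the 5′ untranslated region, 400 bp downstream of the most upstream start. Its signal was 1880.1 in the pooled reads and 450.8, 936.1 and 587.4 in replicates 1, 2 and 3, at ranks 121, 67 and 105. A weaker summit of signal 310.4 stood at 2136600, 22 bp downstream of a start, and introns held summits of 722.7 at 2135340 and 411.2 at 2134460.

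The ph-d promoter was weaker. Its strongest optimal summit within 500 bp of a start was 320.0 at 2122165, in an intron and 373 bp upstream of the inner start, and a summit of 261.7 stood at 2123116 in the 5′ untranslated region. Stronger summits lay outside that distance. One at 2124065, 779 bp upstream of the outer start, had a signal of 1339.8, with 348.7, 543.8 and 451.5 in replicates 1, 2 and 3 at ranks 219, 249 and 207. Another at 2124265, 979 bp upstream, had 804.0, with replicate values of 196.4, 314.1 and 188.6. Both intergenic summits ranked above the ph-d promoter summits in every replicate.

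Within 500 bp of a start, ph-p stood above ph-d by 16.4, 9.86 and 10.7 percentile points in replicates 1, 2 and 3, a mean of 12.3 ± 3.56 (SD, n = 3). An exact sign-flip permutation test, two-sided, gave p = 0.25, the smallest p that 3 replicates allow, and 0.25 after adjustment over the 2 gene pairs tested. The size of the gap depends on the window, and its direction depends on which summits are compared. Within 1000 bp, where the ph-d summits upstream count, the gap was 0.768 ± 0.160 percentile points (SD, n = 3), still higher for ph-p in 3 of 3 replicates. Both summits compared there are near the top of each list, where percentiles leave little room for a gap. In replicates 1, 2 and 3 their signals were 1040.0, 1583.6 and 1000.2 at ph-p, against 348.7, 543.8 and 451.5 at ph-d. On the log2 scale the ratio of ph-p to ph-d signal within 500 bp was 3.49 ± 0.26 (SD, n = 3). The stronger ph-p summits lay 484 and 400 bp from a start, near the edge of that window. The ph-p summit 22 bp from a start had percentiles of 89.0, 83.3 and 88.7 in replicates 1, 2 and 3. At the ph-d summit 170 bp from a start they were 83.5, 87.9 and 82.5, so ph-p was lower there in replicate 2.

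The sequences of both loci were aligned to ask where the paralogues share DNA. The ph-p start at 2136855 aligned exactly with the ph-d start at 2123286. Around and upstream of this start, blocks of 519 bp at 91.3% identity, 85 bp at 80.0% and 335 bp at 83.0% aligned, and gene body blocks reached 3999 bp at 94.4%. The strongest ph-p summit, however, lay in a stretch of 211 bp, from 2137262 to 2137472, that had no alignment in ph-d, where the same gap spans 18 bp. The ph-d summit of 1339.8 at 2124065 likewise lay in a stretch of 311 bp with no alignment to ph-p, which has 216 bp in that place. By contrast, the ph-p summit of 1880.1 at 2137971 maps through an aligned block to ph-d position 2124275, 10 bp from the ph-d summit of 804.0. That pair of summits stood 1116 bp and 979 bp upstream of the start the paralogues share. The ph-p summit of the pair counts as promoter through the most upstream ph-p start, 2138371. That start aligned to ph-d position 2124604, which is 1318 bp from the nearest annotated ph-d start. Which summits count as promoter therefore depends partly on the annotated starts. Of the 31-base words in the region of the strongest ph-p summit, 92.9% occur once on the 6 arms, and 99.3% to 100% do in the other ph-p and ph-d regions listed here. The handling of reads that match both loci is not stated.

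The sequences below are the unaligned ph-p stretch with the strongest summit, and 101 bp around each of the ph-d summits that bear on the comparison, on the minus strand of chromosome X in dm6. Capitals mark runs of A and T of 6 bases or more.
ph-p unaligned stretch chrX:2137262-2137472: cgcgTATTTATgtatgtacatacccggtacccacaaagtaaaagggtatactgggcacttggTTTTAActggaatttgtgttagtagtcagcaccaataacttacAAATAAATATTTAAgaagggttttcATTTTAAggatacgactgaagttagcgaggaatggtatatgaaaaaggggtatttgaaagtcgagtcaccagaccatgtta
ph-d unaligned summit chrX:2124015-2124115: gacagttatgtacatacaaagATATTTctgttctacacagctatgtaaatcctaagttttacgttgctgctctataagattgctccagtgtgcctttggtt
ph-d aligned summit chrX:2124215-2124315: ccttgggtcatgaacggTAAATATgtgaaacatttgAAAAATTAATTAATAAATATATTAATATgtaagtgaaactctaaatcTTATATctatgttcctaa
The longest run of A and T stands at the aligned ph-d summit, where 76.2% of the 101 bases are A or T, against 63.4% at the unaligned one. The aligned block begins at 2124262, so that window and its longest run also cover part of the unaligned stretch. The 2 percentages therefore do not compare aligned with unaligned sequence.

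**Figure D3:**
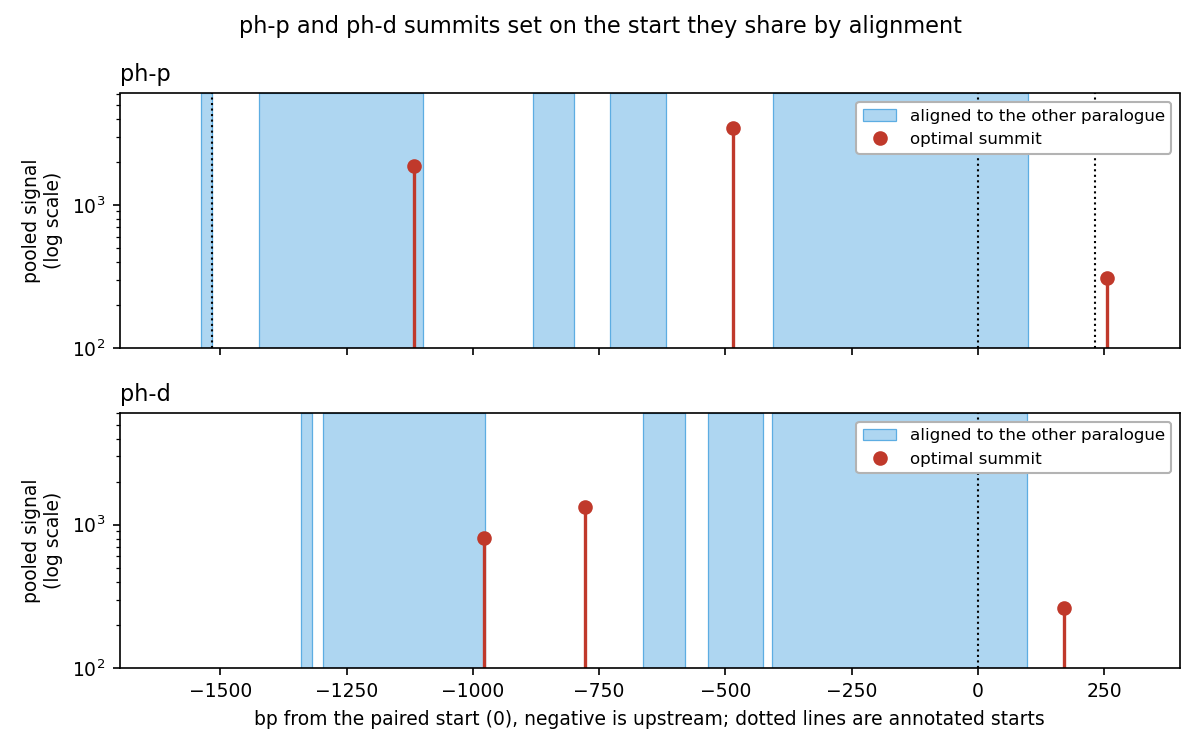
Pooled signal of optimal summits (log scale) at ph-p and ph-d by distance from the start they share in the alignment, with aligned blocks shaded and annotated starts dotted. The tallest summit of each paralogue falls between aligned blocks, while the summits 1116 and 979 bp upstream are at the edge of the same block.

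Psc and Su(z)2 encode related PRC1 proteins and lie close together on 2R with CG33798 and lncRNA:CR44339 between them, Psc on the minus strand from 12965997 to 12980994 and Su(z)2 on the plus strand from 12996501 to 13007911. Unlike the polyhomeotic pair, their loci gave no alignment once low-complexity sequence was masked. The strongest summit in the Psc window, 2016 at 12985193, lay 4199 bp upstream of Psc and 174 bp from the start of the noncoding gene lncRNA:CR44339. Its replicate signals were 502.8, 889.3 and 620.0, at ranks 88, 77 and 88. An intron of Psc held the next summit, 1356 at 12975578, 5080 bp downstream of the nearest Psc start, with 329.2, 593.6 and 428.1 in the replicates. The Psc starts themselves carried only moderate summits in the 5′ untranslated region, 311.5 at 12980603 and 190.7 at 12980853. The latter ranked 6164, 17303 and 5600 in replicates 1, 2 and 3, so it was a weak region in replicate 2.

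Su(z)2 had no optimal summit at its promoter. Its relaxed promoter summit at 12996524 had a pooled signal of 132.1, with no region in replicate 1 and 81.6 and 45.1 in replicates 2 and 3. In its window, optimal summits of 374.7 at 12991648, nearest to a start of CG33798, and 202.1 at 13005427, in an intron 8304 bp downstream of a Su(z)2 start, were present. The intronic region had no overlapping region in replicate 1.

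Psc was above Su(z)2 by 77.9, 10.1 and 22.4 percentile points in replicates 1, 2 and 3, a mean of 36.8 ± 36.1 (SD, n = 3), where Su(z)2 was set to 0 in replicate 1. The exact sign-flip permutation test, two-sided, gave p = 0.25, the smallest p possible, and 0.25 after adjustment over the 2 pairs. Without replicate 1 the mean was 16.2 ± 8.72 (SD, n = 2), and Psc remained above Su(z)2 in both of the other replicates. With the strongest summit in each gene with 5 kb on each side, given to the nearer paralogue, the Psc side was higher by 9.46 ± 3.50 percentile points (SD, n = 3) and in 3 of 3 replicates. The summits behind that value, at 12985193 and 12991648, have starts of lncRNA:CR44339 and CG33798 as their nearest, so it compares the surroundings of the paralogues and not their promoters.

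**Figure D4:**
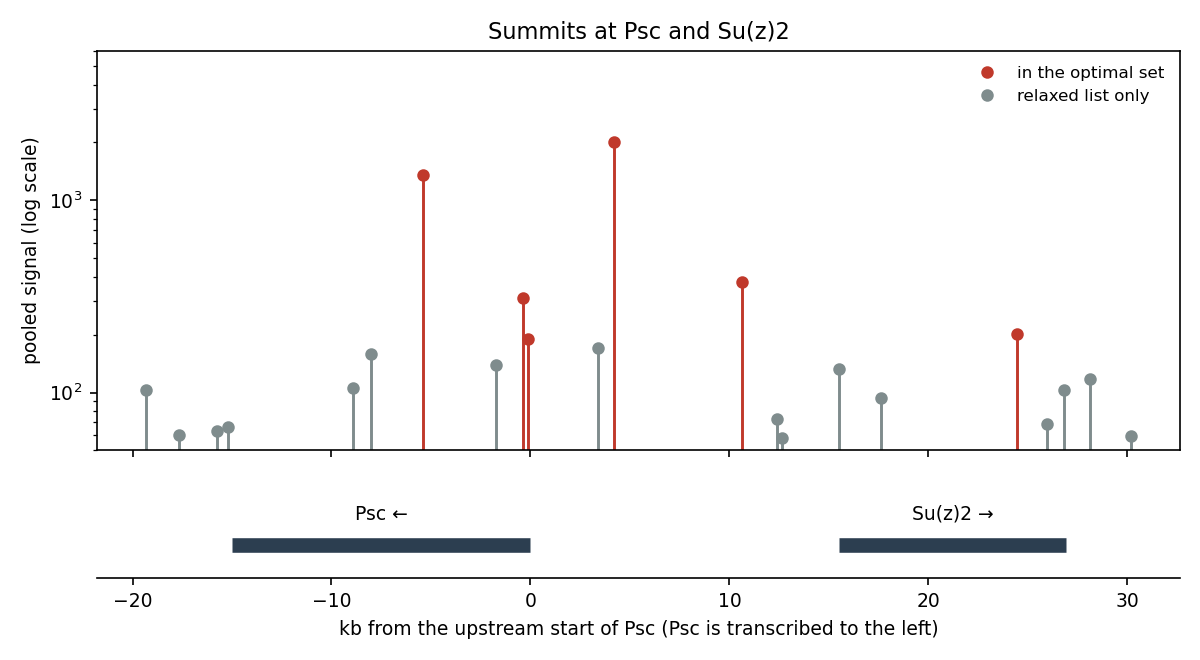
Signal of optimal and relaxed summits across the Psc and Su(z)2 loci in kb from the upstream Psc start, on a log signal axis, with gene bodies below. The strong summits stand near lncRNA:CR44339 and in an intron of Psc, away from the Psc and Su(z)2 promoters.

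Pc, the chromodomain protein that gives the group its name, lies on 3L from 21306138 to 21318020. Its promoter held a relaxed summit only, 167.2 at 21318071, 51 bp upstream of the start, with 42.1, 58.8 and 67.2 in the replicates. The Pc window held a much stronger optimal summit, 2262 at 21304572 and rank 60, but this lay 86 bp from a start of CG11309 and 125 bp from a start of CG7632, and 13448 bp from the Pc start. Sce, the ubiquitin ligase of PRC1, on 3R from 27680431 to 27682029, had no promoter summit in any list. The optimal summit in its window, 186.5 at 27677462, was 60 bp from a start of Hsdl2 and ranked 6406 of 6420, close to the lower end of the set. Of the 10 members, 3 had a top 100 optimal summit in the window (ph-p, Pc and Psc), against 2.04% of protein-coding genes, and at Pc and Psc the start nearest to that summit belongs to a neighbouring gene.

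Among PRC2 genes, E(z), which lies on 3L from 10634575 to 10638130, carried the strongest promoter summit. It stood at 10638080 on 3L, 50 bp downstream of a start in the 5′ untranslated region, with a pooled signal of 891.9 and rank 545. Its replicate signals were 273.1, 332.7 and 289.9, at ranks 398, 692 and 551, and a start of Cnep1r2 is 66 bp away, so the region cannot be assigned to E(z) alone. Su(z)12, on 3L from 19918242 to 19923462, had summits of 429.1 at 19923346 (116 bp downstream of its start) and 260.9 at 19923550 (88 bp upstream), and a start of Pfdn6, a prefoldin subunit, lies 325 bp from the former and 121 bp from the latter. The stronger had 163.4, 136.1 and 126.7 in the replicates, which at ranks 1166, 3037 and 2541 was higher in replicate 1. esc, a WD-repeat protein of PRC2 encoded on 2L from 11827204 to 11829405, had no optimal summit in its window, and a relaxed one of 157.7 at 11829454 on 2L, 49 bp upstream of its start, with 34.0, 69.2 and 44.3 in the replicates.

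pho, which encodes the DNA-binding subunit of the Pho repressive complex, lies on chromosome 4 from 1172469 to 1181628. Its promoter summit was 235.0 at 1181800, 172 bp upstream of the start, with 76.8, 93.1 and 62.3 in the replicates at ranks 3760, 5019 and 6799. It was in the optimal set but beyond the 6420 strongest regions of replicate 3. The 101 bp around the upstream optimal summits of Su(z)12 and pho, in dm6 on the minus strand, are shown with the same capitals. They are shown because both summits are intergenic and lie within 500 bp of the gene's own start.
Su(z)12 upstream summit chr3L:19923500-19923600: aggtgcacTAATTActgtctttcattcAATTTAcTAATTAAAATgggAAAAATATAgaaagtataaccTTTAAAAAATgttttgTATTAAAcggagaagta
pho upstream summit chr4:1181750-1181850: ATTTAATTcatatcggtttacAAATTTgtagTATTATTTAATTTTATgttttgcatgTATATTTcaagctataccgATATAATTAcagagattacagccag
A or T made up 75.2% of the bases in each, toward the upper end of the range over the 22 optimal summits in member windows, 39.6% to 76.2%.

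**Figure D5:**
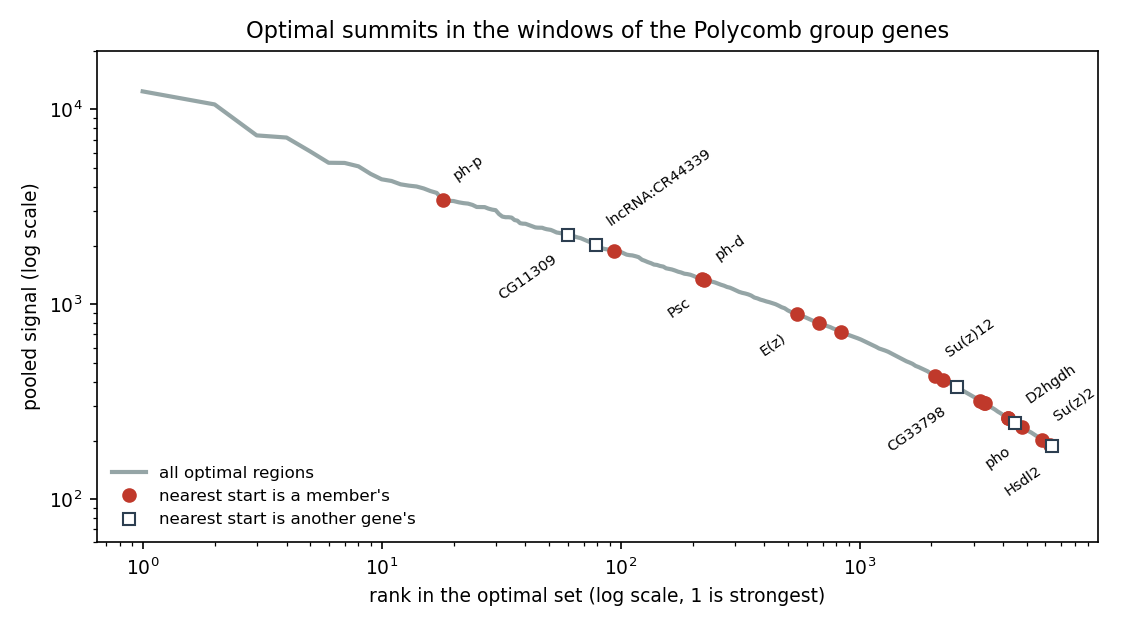
Pooled signal against rank for the optimal set (both axes log), with the summits in the windows of the Polycomb group genes marked and labelled by the gene of the nearest start. Summits range from rank 18 at ph-p to rank 6406 at Hsdl2, and the open squares, including 2 of the 4 strongest, are nearest to starts of other genes.

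The windows of the 10 genes held 22 distinct optimal summits, with 7 in 5′ untranslated regions, 7 intergenic and 8 in introns. Of these, 11 were within 500 bp of a member start, 17 had a member start as the nearest start, and 21 had a region in all 3 replicate lists. The summit positions of the replicates spread by a median of 33.5 bp, and by 95 bp at most. A further 37 summits were in the relaxed list only, and 15 of those had an overlapping region in all 3 replicates. The same replicate region could match several pooled regions, as at 2142069 and 2142271. Some of the 15 therefore share a replicate region with another summit.

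Base composition around the summits resembled that of the optimal set as a whole. Windows of 101 bp had a median of 69.8% A and T at the 22 summits, 68.3% at all optimal summits and 55.4% at windows 500 bp away. Runs of 6 or more A or T bases occurred in 21 of 22 member windows (95.5%), against 93.8% of all optimal windows and 72.5% of the windows 500 bp away. Short motifs were searched on both strands, 3 of them bound by proteins linked to Polycomb recruitment in flies. GCCAT, the core of the pho site, was in 2 of 22 member windows, in 13.6% of all optimal windows and in 17.9% of the windows 500 bp away. GAGAG, the GAGA factor motif, was in 2 of 22, against 9.17% of optimal windows and 14.3% of those 500 bp away, and TGAGTG, the Zeste motif, was in 1 of 22, against 3.52% and 5.34%. All 3 were thus less frequent in the optimal windows than 500 bp away, a difference not tested here and not adjusted for the base composition given above. Of the others, CGATA, the BEAF-32 core, was in 2 of 22, against 16.4% and 11.5%. Neither TATCGATA, the palindrome of DREF and BEAF-32, nor AGATAA, the GATA site, was in any of the 22, against 1.96% and 0.28% for the former and 7.49% and 5.53% for the latter. TATCGATA holds the letters of CGATA. A match of letters does not mark a bound site.

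Beyond the core, 26 other Polycomb genes were listed, and 12 had an optimal promoter summit, with a median signal of 249.5. The background is again 24.9%. By the group each was listed under, 6 of 10 DNA-binding recruiters and Pho repressive complex genes had one. So did 4 of 6 listed as PRC1-linked (E(Pc) among the 4) and 1 of 5 as PRC2-linked. The counts were 0 of 2 for the PR-DUB deubiquitinase (Asx and caly) and 1 of 3 for others. These groups are those of the chosen list and do not establish that a gene encodes a subunit of the complex named. The strongest were at Trl (697.0), which encodes GAGA factor, Sfmbt (623.0), the partner of pho, shared with a start of CG5439, and lolal (443.6), a BTB protein. Next came grh (342.1, shared with asRNA:CR45270), psq (334.3), mxc (257.5, shared with Larp7), Jarid2 (241.6, shared with Uch-L5), Kdm2 (227.0), E(Pc) (222.1), cg (216.0, shared with mRpS16), l(3)73Ah (214.4) and corto (187.9). All 12 had lower pooled signal than the E(z) summit, and 10 of the 14 genes without an optimal promoter summit had a relaxed one. The relaxed share is 50.5% over all protein-coding genes, including those with an optimal summit. No share was computed for genes without an optimal summit.

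The genes whose ranks over the 3 replicate lists were most like those of ph-p, by the summed absolute difference of log10 ranks, were PNPase (0.260, at ranks 18, 20 and 22), mRpL41 (0.273, at ranks 15, 16 and 18) and CenG1A (0.307, at ranks 19, 24 and 25). For ph-p the ranks were 13, 18 and 26.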

How the data were processed

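Chromatin immunoprecipitation sequencing of CG4424-GFP embryos gave lists of regions on dm6 for 3 biological replicates and for the pooled reads. The signal values were made by the authors by calling regions against a control alignment, per the deposited notes, which name the irreproducible discovery rate as the threshold of the optimal set. Neither the caller nor the aligner is named in the labels or notes. Summits and starts were joined by position, with starts from Ensembl release 115 without transposable elements, and a replicate region matched a pooled one when they overlapped by at least 1 bp. Sequences are from the RefSeq assembly of dm6. Loci were aligned with blastn 2.17.0 (word size 11, e-value 1e-05). Paralogue pairs were compared with an exact sign-flip permutation test over 3 replicates, with Benjamini-Hochberg adjustment over 2 pairs. A gene with no promoter region in a replicate was set to percentile 0. Tables were made in Python 3.11.15 with pandas 2.3.3 and numpy 2.4.6 and figures with matplotlib 3.10.9. The steps were tested on simulated data. The members, the other gene lists and the motifs were chosen with earlier results of these data known, and 2 of the other 26 listed Polycomb genes were matched under a RefSeq synonym (caly and sxc). Genes and summits were named as all members, all other Polycomb genes with a promoter summit, and the 3 genes closest to ph-p in rank. The alternatives tried cover other windows, stricter and looser region sets, the nearest start only, and each replicate left out. Read counts, control values and the dm3 lists were not used here.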

Additional observations from a re-analysis of the deposited data

How the results depend on the processing

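To leave out a replicate, only those optimal regions were kept that overlap one of the 6420 strongest regions in each remaining replicate. The count of members with a promoter summit then ran from 5 to 6, with pho lost without replicate 1 or 2, against 21.0%, 20.8% and 21.6% of protein-coding genes without replicates 1, 2 and 3. The count with a summit in the window ran from 7 to 8. No share of all protein-coding genes was computed for it, so it cannot be set against a background. Of the 10 members, 6 had a promoter summit within 250 bp (20.0% of protein-coding genes) and 6 within 1000 bp (28.6%), 4 did among the 3210 optimal regions of higher signal (14.9%) and 9 did in the relaxed list (50.5%). Against the same shares, the count for the 26 other Polycomb genes ran from 8 to 11 with a replicate left out, and was 5 among those 3210 regions, near the background, and 22 in the relaxed list. The median strongest signal of members was 375 within 500 bp of a start. The ph-p to ph-d gap ran from 10.3 to 13.6 percentile points without each replicate, and Psc to Su(z)2 from 16.2 to 50.1. Ranking within equal numbers of the strongest regions, chosen after seeing the data, gave 14.7 and 40.5. The strongest 6420 regions of each replicate alone, also added after seeing the data, gave 6, 7 and 6 members, against 25.8%, 25.6% and 23.6% of protein-coding genes. The cause of these changes was not tested. Depth could not be read from these lists, and the exact two-sided sign-flip permutation test used here cannot give p below 0.25 with 3 replicates.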
